A study of Mus musculus with 4 samples.

Results

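Collagen chain genes are described here across the cells of the mouse ascending aorta in a model of aortic dissection. They were taken as every gene whose symbol is Col, a number, the letter a and a number, with at least 20 unique molecular identifiers (UMIs, 1 per captured RNA molecule) over the 4 libraries. All 44 genes that fit the pattern passed this minimum, out of 55357 genes in the files and 22399 with as many UMIs. They held 2.34% of all UMIs. Male wild-type mice received BAPN (β-aminopropionitrile), which blocks the lysyl oxidase enzymes and so the cross-linking of collagen and elastin, with the drinking water, 1 g/kg each day, from 3 weeks of age for 4 weeks. AD is BAPN without further treatment (2 libraries), and AD_ABR mice were also given paquinimod, a small molecule that binds S100A9, by the intragastric route at 10 mg/kg per day (2 libraries). Both groups carry BAPN, so every comparison is of mice with and without paquinimod during BAPN, and no group without BAPN was analysed here. The labels do not say whether the replicates came from separate mice or pools, so p-values measure only the spread between these libraries.

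A collagen molecule is a triple helix of 3 chains, built in the endoplasmic reticulum after prolines and lysines are hydroxylated, trimmed outside the cell and then cross-linked. Fibrillar collagens such as types I and III bear the load of the arterial wall, and the type IV chains form the sheet of the basement membrane around each smooth muscle cell and under the endothelium. The other families attach to fibrils or to basement membranes, form beaded filaments, or, like types VIII and X, form short-chain networks. Type VIII collagen is known from the intima and media of injured arteries, and type X from hypertrophic cartilage.

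The libraries held 76142840 and 99572011 UMIs in AD and 93575612 and 98946431 in AD_ABR, of which 8451 to 9872 cells per library were kept. Kept cells had median depths of 5268 and 7185 UMIs (AD) and of 9452 and 8208 UMIs (AD_ABR), and the ribosomal RNA sequence Rn18s-rs5 took 5.34 and 3.23% of kept UMIs against 1.83 and 1.37%. These moved with the groups, and their part in the results was not tested, except that leaving Rn18s-rs5 and mitochondrial genes out of the sums left 6 collagen genes past the threshold in all kept cells, as many as with them. Pairs of libraries shared 22 to 38 cell barcodes. Cells were clustered without any collagen gene, so the classes do not rest on the genes described. Classes are named with the ending -like from fixed markers: smooth muscle-like cells (clusters 0 and 1, with Acta2, Tagln and Myh11 among their leading genes), fibroblast-like cells (cluster 2, led by Fmod and Inmt, and cluster 4, led by Tcf21 and Hsd11b1) and others, while a cluster keeps a number where another list led its top genes (3, 9, 12 and 14), where its cells were shallow (15) or where no list fit (21). Clusters 7 and 11 both had Prss12 among their leading genes. It headed those of cluster 7, and in cluster 11 it came after Rgs5, a marker of the pericyte list, and Lypd8l. Both clusters are given together by number, because the marker list they fit was partly chosen from earlier results of these data. The other lists were also chosen with such results known. The fibroblast list holds Fmod, Inmt, Tcf21 and Hsd11b1, and the smooth muscle list holds Igfbp2, Ptprz1 and Npnt, which lead cluster 0 or 1. These leading genes are therefore no separate support for the names. Levels are CPM, UMIs of a gene per 1000000 UMIs of the same cells in the same library, and are not divided by gene length, since 3′ tags are counted.

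Promoter sequences of a head-to-head pair of type IV genes and of 2 genes of the short-chain networks are shown first. The paired chains of the type IV network lie head to head: the starts of Col4a1 and Col4a2 are 21 bases apart, those of Col4a3 and Col4a4 are 72 apart and those of Col4a5 and Col4a6 are 1309 apart, each pair on opposite strands (GENCODE M21, GRCm38). The stretch between the starts of Col4a4 and Col4a3, chr1:82586850-82586920 on the plus strand (RefSeq, GRCm38.p6), is printed because it is all the upstream sequence the pair has before each meets the other's transcript, although neither gene passed the test in all kept cells. The 250 bases before the starts of Col8a1 (chr16:57754738-57754987, minus strand) and Col10a1 (chr10:34389731-34389980, plus strand) are printed because these 2 genes had the largest falls in AD_ABR among those past the test in the sum of all kept cells. Capitals mark matches to the TATA box (TATAAA) or to the GC box (GGGCGG), on either strand.
Col4a4 to Col4a3: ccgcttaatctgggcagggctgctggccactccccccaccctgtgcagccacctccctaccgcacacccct
Col8a1: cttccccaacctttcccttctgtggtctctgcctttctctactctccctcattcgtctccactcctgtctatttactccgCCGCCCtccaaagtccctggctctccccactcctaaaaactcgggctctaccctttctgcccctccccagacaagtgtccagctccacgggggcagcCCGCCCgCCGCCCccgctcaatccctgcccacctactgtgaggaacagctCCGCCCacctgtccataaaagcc
Col10a1: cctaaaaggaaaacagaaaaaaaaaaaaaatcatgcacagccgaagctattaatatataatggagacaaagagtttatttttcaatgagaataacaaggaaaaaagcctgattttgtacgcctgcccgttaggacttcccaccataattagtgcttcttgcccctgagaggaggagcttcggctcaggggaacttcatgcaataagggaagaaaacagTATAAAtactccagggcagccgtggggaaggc

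The 2 network genes that fell together had unlike windows: that of Col8a1 held 4 GC boxes, no TATA box and 60.8% G and C, and that of Col10a1 held 1 TATA box, no GC box and 41.6% G and C. The 71 bases between Col4a4 and Col4a3 were 69.0% G and C and held none of the 4 motifs searched. RefSeq windows were found for 35 of the 44 members (38 windows). The TATA box was in 13.2% of these windows against 12.4% of all 32817 windows of the same length, and CCAAT was in 34.2% against 33.8%. The GC box was in 57.9% against 32.7%, and the AP-1 site (TGANTCA) was in 2.63% against 6.75%. A match is a description of letters and not of a bound site.

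The share of RNA from collagen genes overlapped between the groups, while the cells that held it differed. Collagen genes took 1.90 and 2.64% of the UMIs of all kept cells in AD (mean 2.27% ± 0.53) and 2.05 and 2.65% in AD_ABR (2.35% ± 0.42, SD, n = 2), and the groups overlapped. Within classes, fibroblast-like cells spent 3.91 to 5.08% of their UMIs on collagen, cluster 3 (led by C1qtnf3, Pi16 and Cd55) 3.43 to 5.09%, and smooth muscle-like cells 1.05 to 1.19%. Blood endothelial-like cells spent 0.288 to 0.358% and macrophage-like cells 0.0581 to 0.103%. Fibroblast-like cells held 16.6 and 12.8% of a library's collagen UMIs in AD (14.7% ± 2.72) and 38.7 and 43.6% in AD_ABR (41.2% ± 3.48, SD, n = 2). Cluster 3, counted apart from this class, held 19.99 and 20.29% in AD and 19.45 and 28.96% in AD_ABR. Its best list by mean fold was that of monocytes, but C1qtnf3 and Pi16 of the fibroblast list were among its leading genes. The fibroblast-like shares therefore need not cover all fibroblasts. Smooth muscle-like cells held 6.96 and 7.30% against 23.1 and 13.3%. Cluster 14, led by Cxcl5, Lif and Timp1, held 21.4 and 25.9% in AD and 0.660 and 0.225% in AD_ABR. Cluster 12, led by Ddah1, Penk, Fgf18 and Spp1, held 8.97 and 15.6% against 5.36 and 1.85%. Its best list by mean fold was that of chondrocytes, and Comp, on that list and on another, was among its leading genes. It kept its number because another list had more markers among those genes. The shares of fibroblast-like cells and of cluster 14 moved with numbers of cells. There were 609 and 1190 fibroblast-like cells in AD against 2085 and 2735 in AD_ABR, and 329 and 537 cells of cluster 14 against 18 and 5. In the sum of all kept cells, fewer cells of a type and less RNA per cell cannot be told apart.

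**Figure D1:**
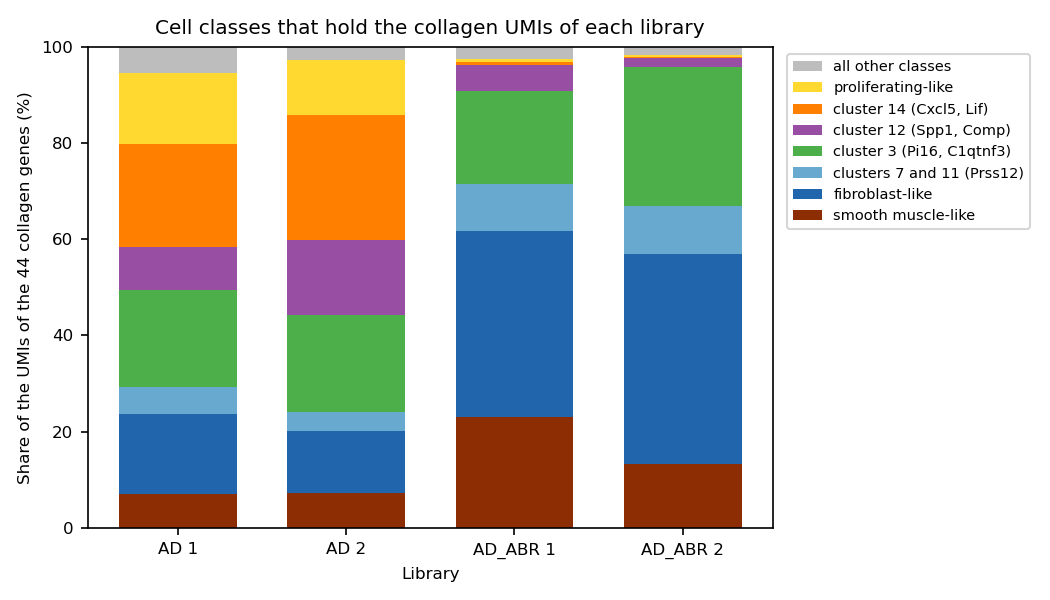
Share of each library's collagen UMIs (%, vertical axis) held by each cell class, as stacked bars, 1 bar per library. Cluster 14 holds 21.4 and 25.9% in AD and under 1% in AD_ABR, and fibroblast-like cells hold 38.7 and 43.6% in AD_ABR.

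Of all 44 collagen genes tested in the sum of all kept cells, 2 rose in AD_ABR (Col4a5, Col4a6) and 4 fell (Col8a1, Col10a1, Col12a1, Col27a1) by edgeR's quasi-likelihood test at an adjusted p below 0.05, which 3.49% of all 20196 genes tested passed (1.03% higher and 2.46% lower in AD_ABR). Both AD_ABR libraries were above both AD libraries for 12 genes and below both for 19, and 13 overlapped. The same was not counted over all genes, so these counts cannot be read as particular to collagen genes. The median log2 fold change was −0.15, against −0.03 over all genes. Leaving out AD_ABR replicate 1 or AD_ABR replicate 2 leaves 1 library in that group, and every call in all kept cells, of collagen genes or others, was then lost. Those fits therefore do not set the 6 apart. None of the 6 passed when chondrocyte-like cells and clusters 12 and 14, all few in AD_ABR, were left out, an alternative added after the data were seen. Of 43 collagen genes tested in that alternative 1 other passed, Col11a1 (−1.68, adjusted p = 0.0357), against 46 genes higher and 345 lower of all 19829. Of 30 collagen genes tested in smooth muscle-like cells, 5 fell (Col8a1, Col27a1, Col12a1, Col10a1, Col6a6) and none rose, against 13.1% of all genes tested there, 5.75% higher and 7.32% lower in AD_ABR. In fibroblast-like cells 2 of 32 fell (Col8a1, Col27a1) and none rose, against 2.02% in either direction and 1.23% lower. The other 14 and 12 genes did not pass the filter on low counts in these classes. The median over the genes tested was −0.12 in smooth muscle-like cells (all genes −0.02) and 0.04 in fibroblast-like cells (all genes −0.02).

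**Figure D2:**
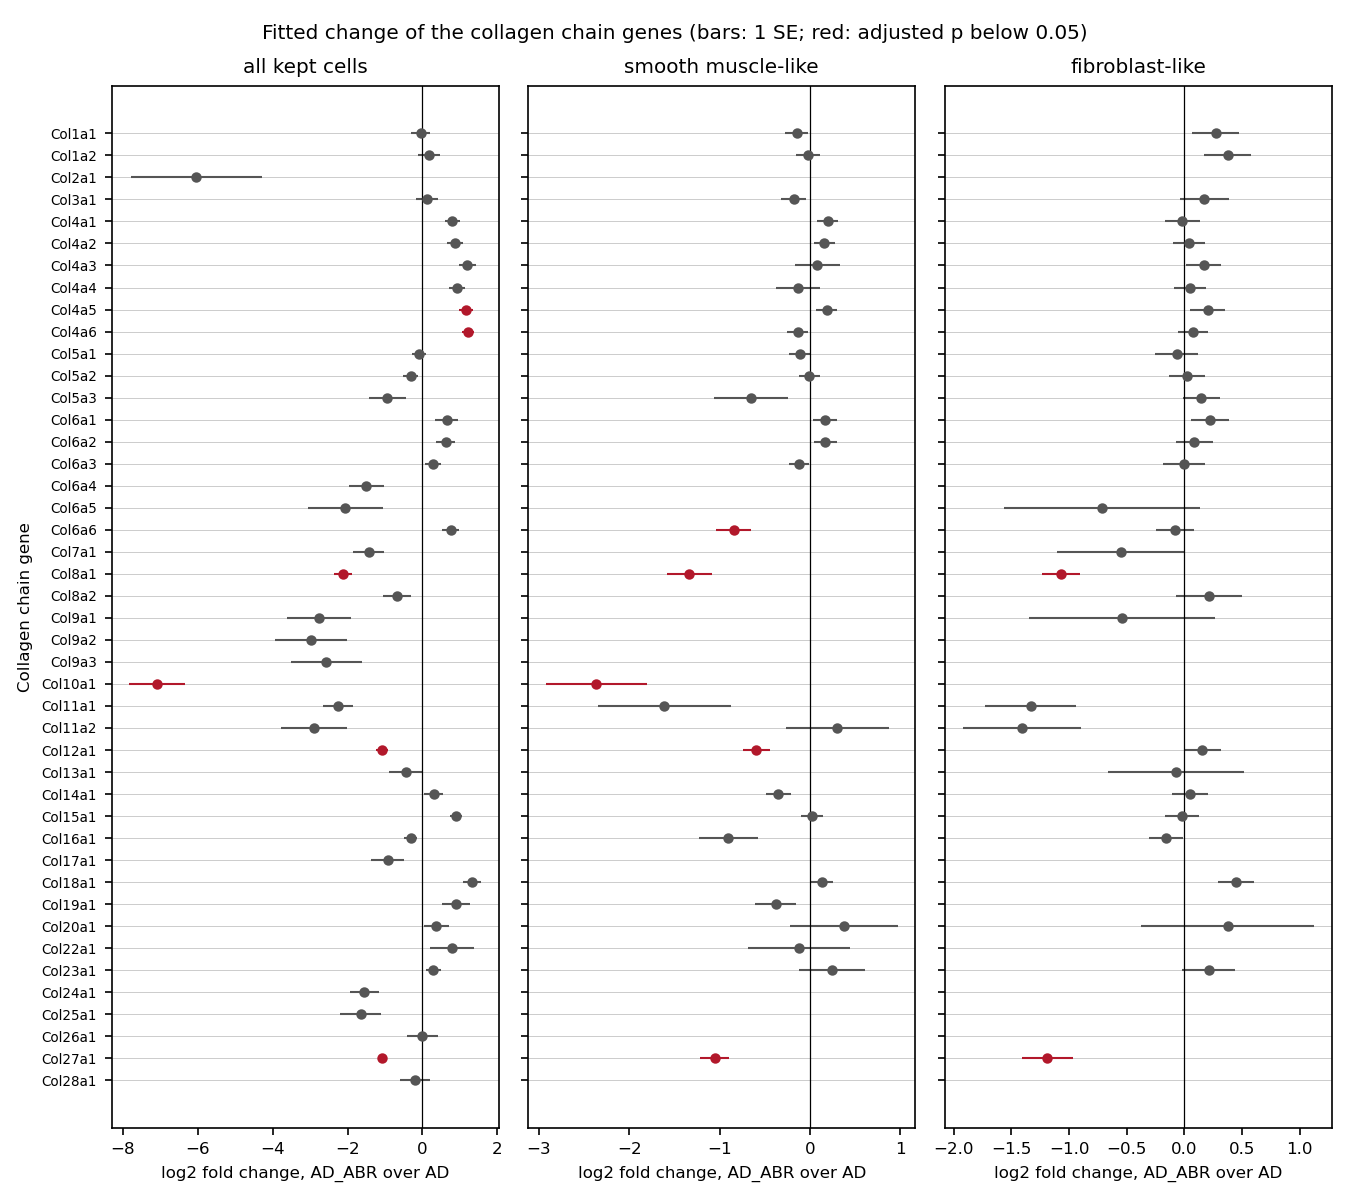
Fitted log2 fold change, AD_ABR over AD (horizontal axis, bars of 1 SE), of each collagen chain gene (vertical axis) in all kept cells, smooth muscle-like and fibroblast-like cells, with genes past an adjusted p of 0.05 in red. Red points are 6, 5 and 2, and Col8a1 and Col27a1 are red in all 3 panels.

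The fibrillar chains of types I, III and V, which make up most of the collagen RNA, did not pass the test in any of these 3 comparisons. Fibrillar chains were 86.4 and 86.9% of collagen UMIs in AD and 79.5 and 83.7% in AD_ABR over all kept cells. Col1a1, the α1 chain of type I, was at 4319 and 5714 CPM in AD and 3867 and 5190 in AD_ABR (log2 fold change −0.05 ± 0.25 SE, adjusted p = 0.912). Col1a2, its α2 chain, was at 5092 and 7819 against 5823 and 7724 CPM, and Col3a1, which forms type III, was at 5682 and 8127 against 5767 and 8286. In all 3 the groups overlapped, and the replicates of a group lay further apart than the group means. Col5a1 (347 and 397 against 287 and 364 CPM) and Col5a2 (594 and 776 against 484 and 548 CPM) code for type V chains, which seed thin fibrils, and their adjusted p-values were 0.759 and 0.34.

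Smooth muscle-like cells carried the type I and III chains in other proportions than fibroblast-like cells. Their Col1a1 level was 1385 and 1221 CPM in AD and 1072 and 1173 in AD_ABR, and that of fibroblast-like cells was 9985, 8851, 9407 and 12000 CPM in the same order. For Col1a2 the smooth muscle-like values were 2326, 2426, 2169 and 2306 CPM and the fibroblast-like values 12650, 13200, 13910 and 17740. For Col3a1 they were 3008, 2459, 2214 and 2379 CPM against 12810, 11000, 10790 and 14460. Col1a1 was 0.494 to 0.595 of Col1a2 in smooth muscle-like and 0.670 to 0.790 in fibroblast-like cells, ranges that did not overlap. Col3a1 was 2.01 to 2.17 times Col1a1 in smooth muscle-like cells and 1.15 to 1.28 times in fibroblast-like cells. The levels of Col5a1 (154 to 187 against 415 to 598 CPM) and Col5a2 (368 to 405 against 548 to 655 CPM) differed less between these classes than those of types I and III.

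The effect of paquinimod on both type I chains differed between these classes by edgeR's test of the difference, with the library as a block. Fibroblast-like minus smooth muscle-like log2 effects were 0.41 ± 0.11 SE for Col1a1 (adjusted p = 0.025) and 0.39 ± 0.11 SE for Col1a2 (adjusted p = 0.0362). This test called 4 of 35 collagen genes, all in the direction of a higher effect in fibroblast-like cells, against 5.4% of all genes. Of 50 genes of collagen making and sensing tested, Creb3l1, Creb3l2, Pcolce and Itga1 were called in that direction and Ddr1 in the other. None of the 5 was called with DESeq2 (adjusted p = 0.0651 to 0.371) or without AD_ABR replicate 1 (0.0721 to 0.356), and 1, Pcolce, was called without AD_ABR replicate 2. Creb3l1 (0.142), Pcolce (0.127) and Itga1 (0.163) were also lost without AD replicate 1, and Ddr1 without AD replicate 2 (adjusted p = 0.114). Within fibroblast-like cells the changes of 0.27 (adjusted p = 0.44) and 0.38 (adjusted p = 0.297) did not pass, and in smooth muscle-like cells they were −0.14 and −0.02. Different clusters held most of the fibroblast-like class in the 2 groups: cluster 2 held 166 and 457 cells of AD against 1241 and 1630 of AD_ABR, and cluster 4 held 443 and 733 against 844 and 1105. Col1a1 was at 16910, 13810, 12180 and 15600 CPM in cluster 2 and at 7764, 5424, 5289 and 6400 CPM in cluster 4, so that the groups overlapped in each. The log2 fold changes of Col1a1 within the 2 clusters were −0.08 and −0.14. Both interaction calls were lost without AD_ABR replicate 1 (adjusted p = 0.138 for Col1a1 and 0.137 for Col1a2) and without AD_ABR replicate 2 (0.609 and 0.689), Col1a2 also without AD replicate 1 (0.0725), and DESeq2 called no collagen gene in this comparison.

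Col27a1, a fibrillar chain known mainly from cartilage, fell in the sum of all cells and in both main stromal classes, with both AD_ABR libraries below both AD libraries each time. It was at 34.8 and 37.9 CPM in AD and 16.4 and 15.9 CPM in AD_ABR over all kept cells, 2.25-fold lower (log2 fold change −1.07 ± 0.12 SE, adjusted p = 0.0308), and without the cells few in AD_ABR the value was −0.65 (adjusted p = 0.0623). It was at 23.8 and 17.1 against 10.01 and 8.34 CPM in smooth muscle-like cells (−1.05 ± 0.16 SE, adjusted p = 0.000779), a call that every one of the 15 alternatives run kept. In fibroblast-like cells it was at 55.7 and 31.5 against 18.2 and 17.3 CPM (−1.19 ± 0.22 SE, adjusted p = 0.0328). There the change was −0.78 without AD replicate 1, which still passed, and −0.75 in cluster 4 alone, which did not (adjusted p = 0.115). RNA free in the droplets, measured as UMIs in neutrophil-, B- and T-like cells, was 5.17, 4.39, 31.0 and 7.52% of the smooth muscle-like level in the order AD 1, AD 2, AD_ABR 1, AD_ABR 2, and 2.36, 3.12, 23.7 and 5.09% of the fibroblast-like level. Those cells numbered 2542, 642, 86 and 158 in the same order. Free RNA values of AD_ABR, here and below, therefore rest on few cells and are rough for genes at low levels.

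Of the 6 type IV chains and the 2 multiplexins, 2 rose in AD_ABR in the sum of all cells, and none passed the test within smooth muscle-like or fibroblast-like cells. Col4a5, a type IV chain of specialised basement membranes, rose from 154 and 200 to 374 and 364 CPM (log2 fold change 1.16 ± 0.19 SE, adjusted p = 0.0482). Col4a6, its head-to-head neighbour, rose from 48.4 and 57.8 to 124 and 105 CPM (1.21 ± 0.17 SE, adjusted p = 0.0387). With DESeq2 size factors the adjusted p of Col4a5 was 0.0501. Without the cells few in AD_ABR both calls were lost, at 1.08 (adjusted p = 0.0639) for Col4a5 and 1.03 (adjusted p = 0.0615) for Col4a6. The other type IV chains lay above both AD libraries in both AD_ABR libraries but did not pass. Col4a1 and Col4a2, the chains of the common network, were at 288 and 373 against 575 and 500 CPM (adjusted p = 0.0792) and at 152 and 203 against 327 and 277 CPM (adjusted p = 0.0763). Col4a3 was at 15.6 and 22.8 against 38.9 and 43.3 CPM (adjusted p = 0.0555), and Col4a4 was at 32.7 and 46.4 against 66.3 and 74.5 CPM (adjusted p = 0.0709). The multiplexins, which sit in basement membranes and can release anti-angiogenic fragments, went the same way: Col18a1 was at 221 and 291 against 687 and 516 CPM (1.33 ± 0.23 SE, adjusted p = 0.0522) and Col15a1 at 185 and 225 against 355 and 360 CPM (0.90 ± 0.17 SE, adjusted p = 0.0555).

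Within smooth muscle-like cells none of these genes passed the test. Col4a1 was at 681 and 642 CPM in AD and 726 and 720 in AD_ABR (log2 fold change 0.20 ± 0.12 SE, adjusted p = 0.281). Col4a2 was at 427 and 415 against 448 and 448 CPM, and Col4a5 was at 403 and 402 against 428 and 446 CPM. Col4a6 was at 169 and 146 against 141 and 131 CPM, which is lower in AD_ABR, opposite to its value over all cells (−0.14 ± 0.12 SE, adjusted p = 0.454). Col18a1 was at 1323 and 1270 against 1333 and 1373 CPM, and Col15a1 at 426 and 441 against 401 and 439 CPM. Fibroblast-like cells gave Col4a1 at 692 and 566 against 584 and 587 CPM and Col15a1 at 424 and 405 against 359 and 412 CPM, with no basement membrane chain or multiplexin past the test. There were 852 and 1825 smooth muscle-like cells in AD against 3398 and 2734 in AD_ABR, and they held 82.3% of all Col18a1 UMIs, 43.3% of those of Col4a1 and 44.6% of those of Col4a6.

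The class a chain came from differed between the type IV pairs. Fibroblast-like cells held 50.9% of Col4a3 and 50.5% of Col4a4 UMIs, and in these cells Col4a4 was at 185 to 198 CPM against 6.51 to 11.98 CPM in smooth muscle-like cells. The ratio of the 2 chains of a pair was narrow in some classes and wide in others. Col4a1 was 1.55 to 1.62 times Col4a2 in smooth muscle-like, 1.98 to 2.11 times in fibroblast-like and 2.48 to 2.70 times in blood endothelial-like cells. Col4a4 was 1.76 to 2.11 times Col4a3 in fibroblast-like cells, and Col4a5 was 3.05 to 3.52 times Col4a6 there. Col4a5 was 2.38 and 2.76 times Col4a6 in the smooth muscle-like cells of AD and 3.04 and 3.40 times in AD_ABR, higher in both AD_ABR libraries, and the ratio ran from 1.95 to 3.86 in cluster 15. The ratio of Col4a1 to Col4a2 ran from 0.905 to 1.57 in chondrocyte-like cells. In blood endothelial-like cells Col4a6 was at 4.73 and 6.96 CPM in AD and 20.6 and 16.4 in AD_ABR (1.55 ± 0.32 SE, adjusted p = 0.0118), from 8, 23, 55 and 40 UMIs, and RNA free in the droplets was 36.8, 22.7, 20.2 and 30.4% of that level. It was 1 of 2 collagen genes called among 20 tested there, against 5.59% of all genes (1.53% higher and 4.06% lower), and its call was lost without AD_ABR replicate 1 (adjusted p = 0.159) or 2 (0.0535). In cluster 15, whose cells are shallow, Col18a1 was at 594 and 688 against 1306 and 1477 CPM (1.11 ± 0.24 SE, adjusted p = 0.0203), a call lost without AD_ABR replicate 1 (adjusted p = 0.248) or 2 (0.35). RNA free in the droplets was 2.07, 7.35, 17.8 and 2.26% of that level.

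**Figure D3:**
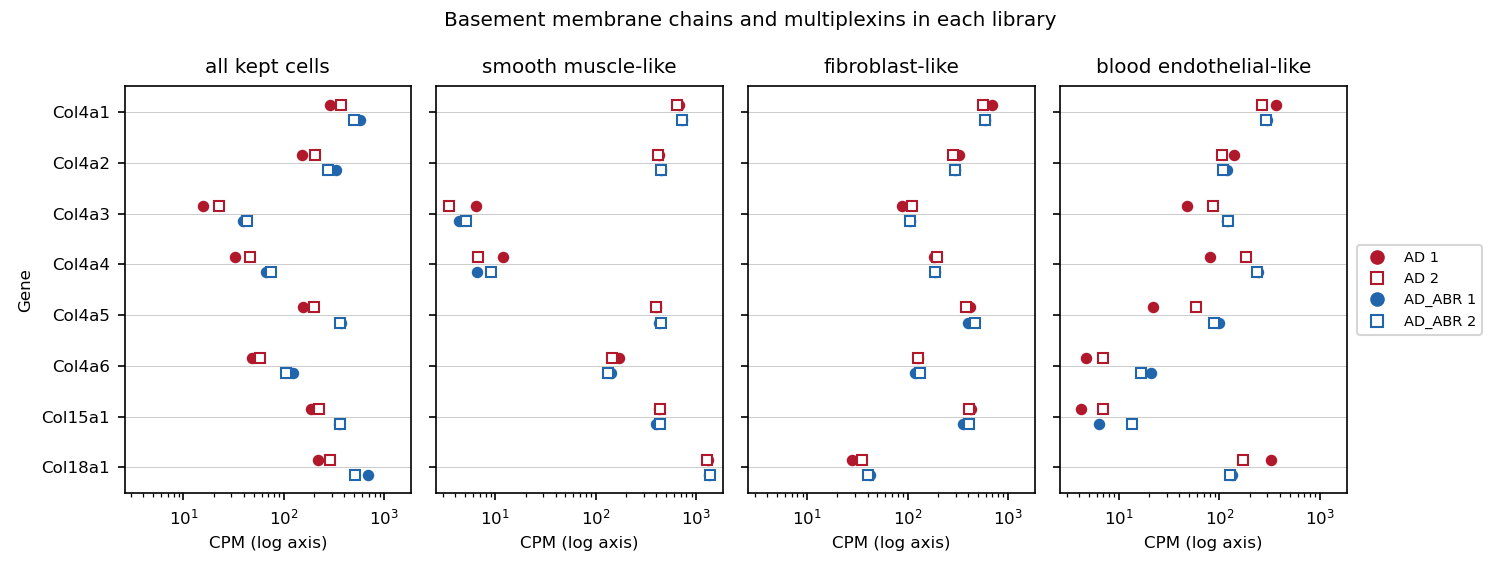
Levels (CPM, log axis) of the type IV chains and the multiplexins Col15a1 and Col18a1 in each library, in all kept cells and 3 classes. In all kept cells both AD_ABR libraries lie above both AD libraries, while in smooth muscle-like cells Col18a1 lies between 1270 and 1373 CPM in all 4.

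Col8a1, the α1 chain of the short-chain network collagen VIII, was lower in AD_ABR in most classes that were measured. Over all kept cells it was at 162 and 237 CPM in AD and 40.0 and 45.6 CPM in AD_ABR, 4.67-fold lower (log2 fold change −2.13 ± 0.24 SE, adjusted p = 0.0303). Both AD libraries lay above both AD_ABR libraries. The value without chondrocyte-like cells and clusters 12 and 14 was −1.46 (adjusted p = 0.0503). Cluster 12, the cells with the highest level in AD, had 1603 and 1405 against 441 and 398 CPM (−1.89 ± 0.23 SE, adjusted p = 0.0446), the 1 called gene of 28 collagen genes tested there, against 0.057% of all genes and 0.0285% lower in AD_ABR. With 212 and 578 cells in AD against 99 and 82 in AD_ABR, it held 36.4, 56.8, 29.9 and 11.2% of the Col8a1 UMIs of the libraries in the order given. Its call was lost without AD_ABR replicate 1 (log2 fold change −1.95) or 2 (−1.81), each with 1 library left in that group. Nearly all calls over all genes of cluster 12 were lost in those fits as well.

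Smooth muscle-like and fibroblast-like cells showed the same direction at far lower levels. Col8a1 was at 22.3 and 12.8 CPM in AD and 5.46 and 7.43 in AD_ABR in smooth muscle-like cells (−1.33 ± 0.25 SE, adjusted p = 0.00876). It was at 38.0 and 16.9 against 9.92 and 8.90 CPM in cluster 0 and at 10.2 and 8.97 against 2.71 and 5.38 CPM in cluster 1. In cluster 0 alone the adjusted p was 0.056, and with collagen genes kept for clustering it was 0.0875. With the replicate number as a block it was 0.0905. In the same cells the 18 smooth muscle markers summed to 47830 and 54640 CPM in AD and 58600 and 63220 in AD_ABR, and 10 proliferation markers summed to 19.5 and 15.4 against 5.41 and 5.51 CPM. Both lists moved with the groups, and their part in the fall was not tested. RNA free in the droplets was 13.1, 33.7, 0 and 16.9% of the smooth muscle-like level. Fibroblast-like cells had 73.6 and 68.6 against 37.6 and 26.6 CPM (−1.07 ± 0.16 SE, adjusted p = 0.0181). This value depended on which cluster made up the class, because cluster 2 had 76.2 and 19.8 against 12.3 and 5.18 CPM (−2.18, adjusted p = 0.224) and cluster 4 had 72.8 and 103 against 75.2 and 60.0 CPM (−0.36, adjusted p = 0.335). Without AD_ABR replicate 2 the fibroblast-like adjusted p was 0.0674, and with collagen genes kept for clustering it was 0.056.

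A fall of Col8a1 that no alternative ended was in the class made of the Prss12 clusters 7 and 11. It was at 90.1 and 62.0 CPM in AD and 15.7 and 20.8 in AD_ABR (−2.04 ± 0.19 SE, adjusted p = 0.000143), 1 of 2 collagen genes that fell among 28 tested there, against 1.42% of all genes and 0.791% lower in AD_ABR. Alternatives with other clusterings tested the cells that then fit the same marker list, which need not be the cells of clusters 7 and 11. At Leiden resolution 0.5 such cells gave −3.87. The other gene was Col16a1, a fibril-associated chain, at 76.9 and 63.0 against 41.6 and 47.9 CPM (−0.64 ± 0.14 SE, adjusted p = 0.043), a call lost without AD replicate 1 (adjusted p = 0.0597) or AD_ABR replicate 1 (0.349) and with DESeq2 (0.103). In blood endothelial-like cells Col8a1 was at 152 and 203 against 117 and 92.7 CPM (−0.81 ± 0.17 SE, adjusted p = 0.0148), lost without AD_ABR replicate 1 (0.0732) or 2 (0.297). In cluster 15 it was at 122 and 81.4 against 5.86 and 19.96 CPM (−2.94 ± 0.51 SE, adjusted p = 0.00787), 1 of 3 genes called among 19 against 1.61% of all genes (0.428% higher and 1.18% lower), and lost without AD_ABR replicate 1 (0.0731). RNA free in the droplets was 5.95, 25.99, 0 and 25.7% of its level in cluster 15.

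Among the other cells, cluster 3 had 334 and 198 CPM in AD against 99.5 and 145 in AD_ABR and Schwann-like cells had 73.3 and 155 against 35.2 and 34.9 CPM, and neither passed the test. In these 2 sets no collagen gene was called by edgeR, of 30 and 20 tested, against 0.0368 and 0.146% of all genes. At an unadjusted p below 0.05 there were 8 and 3, a count not made over all genes. DESeq2 called 1 and 0 collagen genes, against 48 genes higher and 101 lower of all 13601 in cluster 3. In Schwann-like cells it called 0 higher and 13 lower of all 5488. In cells too few for a test, cluster 14 had 190 and 188 against 346 and 92.3 CPM, and pericyte-like cells had 40.3 and 35.0 against 34.8 and 36.0 CPM, so that the groups overlapped. Chondrocyte-like cells had 160 and 195 CPM against 570 and 2579, higher in AD_ABR, with those values from 31 and 7 cells. Col8a2, the partner chain of type VIII, was at 5.30 and 10.6 against 5.17 and 4.17 CPM (adjusted p = 0.27), so Col8a1 was 30.6 and 22.4 times Col8a2 in AD and 7.72 and 10.96 times in AD_ABR.

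**Figure D4:**
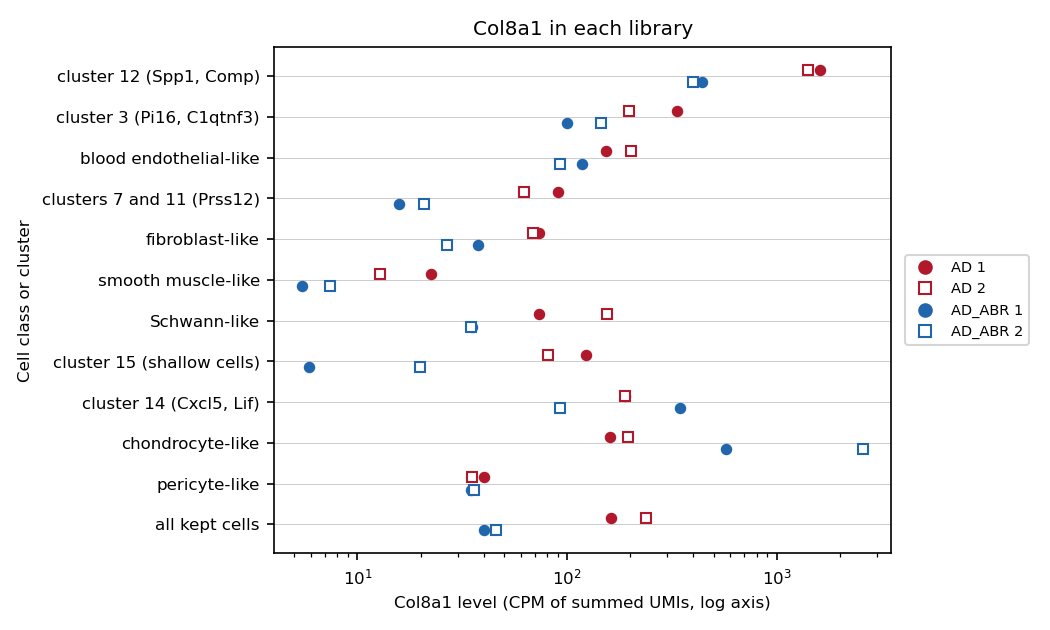
Col8a1 level (CPM of summed UMIs, log axis) in each cell class or cluster, 1 point per library. Cluster 12 has the highest AD values (1603 and 1405 CPM), and pericyte-like cells lie between 34.8 and 40.3 CPM in all libraries.

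Col10a1, the single chain of type X collagen, had the largest fitted fall of the 44 genes in all kept cells and came mostly from cluster 12. It was at 67.3 and 21.03 CPM in AD and at 0.387 and 0.208 CPM in AD_ABR over all kept cells (log2 fold change −7.09 ± 0.74 SE, adjusted p = 0.0272), and without the cells few in AD_ABR the value was −4.33 (adjusted p = 0.0895). Cluster 12 held 88.0% of its UMIs, at 1589 and 203 CPM in AD and 0 and 5.41 in AD_ABR. The smooth muscle-like cells had 24 and 15 UMIs of it in AD and 17 and 6 in AD_ABR, or 3.27 and 0.990 against 0.444 and 0.218 CPM (−2.36 ± 0.56 SE, adjusted p = 0.0149). That value was −1.48 without AD replicate 1 (adjusted p = 0.13), and RNA free in the droplets was 61.5, 18.95, 0 and 0% of its level in the 4 libraries. In fibroblast-like cells 12 UMIs in AD stood against 0 in AD_ABR, which is at least 11.7-fold lower with a floor of 3 counts over the group.

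The cartilage chains stood out in 1 library. In cluster 12 Col2a1, which makes the fibrils of cartilage, was at 4834 CPM in AD replicate 1, 63.7 in AD replicate 2, and 2.60 and 3.60 in AD_ABR. Col9a1, which decorates those fibrils, was at 189, 7.14, 0.434 and 2.70 CPM in the same order. Col11a1, a minor chain of the same fibrils, was at 414, 161, 158 and 70.3 CPM, and Col11a2 was at 187, 1.07, 0.868 and 0 CPM. AD replicate 1 was the highest for all 4, and for Col2a1, Col9a1 and Col11a2 AD replicate 2 lay nearer to AD_ABR than to it. The 12 chondrocyte markers, none of them a collagen, summed to 3726 and 942 CPM in cluster 12 in AD and 548 and 515 in AD_ABR, so this list moved with the genes. Its part in them was not tested, nor whether valve or cartilage tissue was taken with that library, of which the labels say nothing. Over all kept cells Col2a1 was at 225, 7.07, 2.56 and 0.671 CPM (adjusted p = 0.0966), Col9a1 at 8.75, 1.57, 0.880 and 0.509 CPM (adjusted p = 0.103) and Col11a1 at 26.2, 25.6, 7.16 and 3.02 CPM (adjusted p = 0.0536). Chondrocyte-like cells, led by Chad and Comp, had Col2a1 at 101 and 43.4 against 783 and 632 CPM, the AD_ABR values from 31 and 7 cells. Col10a1 was at 2.81 CPM in these cells in AD replicate 1 and at 0 in the other 3 libraries.

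**Figure D5:**
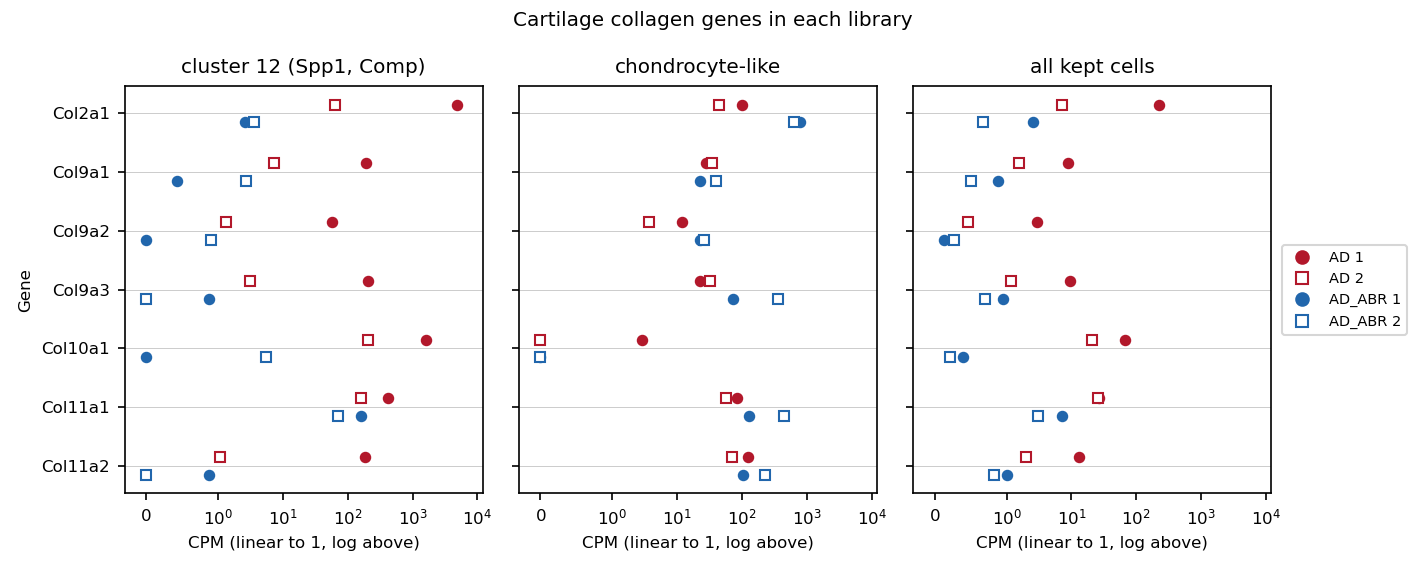
Levels (CPM, linear to 1 and log above) of the cartilage collagen genes in each library, in all kept cells, cluster 12 and chondrocyte-like cells. In cluster 12 Col2a1 is at 4834 CPM in AD replicate 1 against 63.7 in AD replicate 2, and Col10a1 is at 1589 against 203.

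Among the fibril-associated chains Col12a1, which bridges type I fibrils and is known from tissue under load, fell in smooth muscle-like cells and not in fibroblast-like cells. It was at 78.7 and 98.9 CPM in AD and 39.3 and 39.3 in AD_ABR over all kept cells (−1.08 ± 0.16 SE, adjusted p = 0.0442, and −0.59, adjusted p = 0.0862, without the cells few in AD_ABR). In smooth muscle-like cells it was at 26.8 and 24.2 against 18.3 and 13.6 CPM (−0.60 ± 0.15 SE, adjusted p = 0.0159), a call lost without AD_ABR replicate 2 (adjusted p = 0.247). In fibroblast-like cells it was at 44.5 and 33.4 against 44.8 and 36.6 CPM (0.16 ± 0.16 SE, adjusted p = 0.588), and the 2 effects differed by 0.78 ± 0.15 SE (adjusted p = 0.000655, edgeR). Within fibroblast-like cells the clusters went apart: cluster 4 had 34.6 and 28.02 against 15.3 and 17.1 CPM, a fall of its own (−0.92, adjusted p = 0.0324), and cluster 2 had 75.3 and 41.2 against 64.6 and 49.1 CPM. The difference was lost without AD_ABR replicate 2 (adjusted p = 0.0571), with DESeq2 (0.0692) and at Leiden resolution 0.5 (0.0722). Col14a1, a related chain of resting stroma, was at 361 and 516 against 438 and 572 CPM over all kept cells (adjusted p = 0.452) and at 1048 and 958 against 954 and 1006 CPM in fibroblast-like cells.

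The beaded filament chains of type VI, which link cells to the surrounding matrix, did not pass in the sum of all cells. Col6a1 was at 259 and 437 against 452 and 572 CPM (adjusted p = 0.208), Col6a2 at 210 and 313 against 341 and 410 CPM (adjusted p = 0.167) and Col6a3 at 226 and 298 against 267 and 328 CPM (adjusted p = 0.408). Col6a1 was 1.17 to 1.23 times Col6a2 in the smooth muscle-like cells of the 4 libraries. Col6a6, a chain similar to that of Col6a3, fell in smooth muscle-like cells from 15.9 and 10.2 to 7.39 and 5.98 CPM (−0.84 ± 0.19 SE, adjusted p = 0.0107), while its level over all kept cells was 12.2 and 16.5 against 19.7 and 25.4 CPM. In cluster 1 alone its adjusted p was 0.0926. Col6a5 is a chain of the same kind whose UMIs came from clusters 3 and 14 in amounts that differed by library: cluster 14 held 13.5 and 62.0% in AD and 0 and 0% in AD_ABR, and cluster 3 held 53.9, 16.4, 68.8 and 51.7%. It had the fourth called difference between classes (4.79 ± 1.42 SE, adjusted p = 0.04), from 1 and 8 against 0 and 0 UMIs in smooth muscle-like cells, which is at least 8.78-fold lower with a floor of 3 counts over the group. That call was lost without any 1 of the 4 libraries (adjusted p = 0.0751 to 0.362). Col5a3 in cluster 15 had 11 and 24 against 0 and 0 UMIs, at least 8.36-fold lower (adjusted p = 0.0143), and was lost without AD replicate 1 (0.0893) or AD_ABR replicate 1 (0.0643). Free RNA was 5.30 and 28.8% of its level in the AD libraries.

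The UMIs of several minor chains came in large part from 1 class. Smooth muscle-like cells held 90.8% of Col19a1 UMIs (75.9 to 98.0% by library) and 78.4% of those of Col22a1 (45.5 to 90.9%), both of the fibril-associated family. Schwann-like cells, which ensheath nerve fibres, held 46.9% of Col28a1 (15.3 to 88.1%) and 54.6% of Col26a1 (14.3 to 90.9%), so that these shares varied widely. Blood endothelial-like cells held 31.1% of Col23a1, a transmembrane collagen, and cluster 3 held 37.3% of Col5a3. These levels were low: Col19a1 lay between 0.786 and 1.94 CPM and Col23a1 between 5.54 and 7.51 CPM over all kept cells. None of them passed the test in all kept cells. The chains not named elsewhere were scarce: Col9a2 and Col9a3, the partners of Col9a1, were at 2.99, 0.457, 0.129 and 0.266 and at 9.55, 1.19, 0.950 and 0.706 CPM. Col6a4, Col7a1, Col13a1, Col17a1, Col20a1, Col24a1 and Col25a1 lay between 0.0469 and 1.75 CPM over all kept cells, and none of these 9 passed there.

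Of 53 genes of collagen making and sensing on fixed lists, 51 were tested in all kept cells, where 2 rose and 1 fell, 48 in smooth muscle-like cells, where 6 rose and 3 fell, and 47 in fibroblast-like cells, where 1 rose and 1 fell. Over all genes, 3.49% were called in all kept cells, 13.1% in smooth muscle-like cells (5.75% higher and 7.32% lower) and 2.02% in fibroblast-like cells, and no share of the lists was tested against these. In smooth muscle-like cells 3 of the 14 genes of folding, chaperones and export rose and none fell (median 0.16), and of the 14 hydroxylases and glycosyltransferases 2 rose and 1 fell (median 0.11), against a median of −0.02 over all genes. P4ha1, a catalytic subunit of prolyl 4-hydroxylase, rose from 116 and 104 to 173 and 136 CPM (0.57, adjusted p = 0.00925, and 0.128 without AD_ABR replicate 1). P4ha2, its paralogue, rose there (0.58, adjusted p = 0.00423), in fibroblast-like cells from 51.0 and 49.7 to 75.4 and 77.9 CPM (0.69, adjusted p = 0.0281) and in blood endothelial-like cells (0.80, adjusted p = 0.00855). The endothelial call was lost without AD_ABR replicate 1 (adjusted p = 0.12) or 2 (0.0816) and with doublets kept (0.0571). The fibroblast-like call was lost in cluster 2 (0.49, adjusted p = 0.193) and cluster 4 (0.25, adjusted p = 0.463) taken alone, and without AD_ABR replicate 1 (0.0742) or 2 (0.243). Tmem38b, a cation channel of the endoplasmic reticulum, rose from 82.4 and 86.1 to 121 and 145 CPM (0.72, adjusted p = 0.00177). Ppib, a prolyl isomerase, Slc39a13, a zinc transporter, and Pcolce2, which enhances procollagen trimming, rose by 0.52, 0.49 and 0.63 (adjusted p = 0.0236, 0.0126 and 0.0271). Ppib was lost without AD replicate 1 (0.075) or AD_ABR replicate 2 (0.254), Slc39a13 without AD_ABR replicate 1 (0.0584) or 2 (0.0626), and Pcolce2 without AD replicate 1 (0.0634).

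Few genes of these lists fell. Mrc2, an endocytic receptor that clears collagen fragments, fell in smooth muscle-like cells from 45.8 and 37.6 to 23.4 and 23.99 CPM (−0.74, adjusted p = 0.00136), and also in the Prss12 clusters 7 and 11 (−0.66, adjusted p = 0.043). The latter call was lost without AD replicate 1 (adjusted p = 0.0642) or AD_ABR replicate 1 (0.309), with doublets kept (0.0594) and with collagen genes kept for clustering (0.0753). P4ha3, the third prolyl 4-hydroxylase subunit of its kind, and Adamts14, a procollagen protease, were at 1.498 and 1.12 against 0.183 and 0.471 CPM and at 2.995 and 2.57 against 1.41 and 1.09 CPM in smooth muscle-like cells (adjusted p = 0.022 and 0.0341). P4ha3 was lost without AD replicate 1 (0.0511) or AD_ABR replicate 1 (0.248). Adamts14 was lost without AD replicate 1 (0.0737), AD_ABR replicate 1 (0.0715) or AD_ABR replicate 2 (0.273). Ddr1, a collagen receptor kinase, fell in fibroblast-like cells from 18.7 and 18.8 to 10.9 and 8.95 CPM (−0.84, adjusted p = 0.0333). That call was lost with DESeq2 (adjusted p = 0.0699), in cluster 2 alone (0.159) and in cluster 4 alone (0.0809). It was also lost without AD_ABR replicate 2 (log2 fold change −0.716). In all kept cells P3h2, a prolyl 3-hydroxylase (0.98, adjusted p = 0.0476) and Tmem38b (1.27, adjusted p = 0.0373) rose and Tll1, a procollagen protease, fell (−2.32, adjusted p = 0.0441). These calls were lost without AD_ABR replicate 1 or 2, as was every other call in all kept cells. Lox and Loxl1, which BAPN inhibits as enzymes, did not pass in any of the 3 comparisons: the log2 fold changes over all kept, smooth muscle-like and fibroblast-like cells were 0.03, 0.10 and 0.42 for Lox and 0.31, 0.16 and 0.16 for Loxl1. Serpinh1, the collagen chaperone, gave 0.20, 0.32 and 0.55, and Plod2, a lysyl hydroxylase, gave −0.48, 0.09 and −0.45, with none past the threshold.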

How the data were processed

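Single-cell 3′ RNA libraries (10x Genomics) of the ascending aorta of 4 samples were grouped by their labels into AD and AD_ABR, with 2 each. Reads were counted with STAR and Cell Ranger 6.0 on GRCm38, with Seurat 4.0 also used, per the submitters' processing notes, and the matrices name Cell Ranger 7.1.0. The deposited values are unnormalized UMI counts per gene and barcode, all whole, per the file headers. The annotation release used for counting is not given in the sources used here. All 44 members had 1 identifier each and were found in GENCODE M21.

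Barcodes with at least 200 genes and under 20% mitochondrial UMIs were kept, and the highest doublet scores (Scrublet in scanpy 1.11.5) were removed up to 0.8% per 1000 barcodes (665 to 934 per library; the caller's own threshold marked 1.31 to 4.97%). Cells were clustered on 2000 variable genes without collagens (30 components, 15 neighbours, leidenalg 0.10.2, resolution 1.0) and named from 24 marker lists. A first clustering with fewer Leiden iterations was replaced before any group test, but after collagen levels by class had been seen. Names built this way may differ from the authors' own.

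UMI counts were summed per library and class where each library had at least 50 cells, and tested as AD_ABR minus AD with edgeR 4.0.16 in R 4.3.3 (TMM, filterByExpr, robust quasi-likelihood F test, Benjamini-Hochberg adjustment over all genes of the class, threshold 0.05). All adjusted p-values come from edgeR in this form unless DESeq2 (1.42.0) is named. SE is the size of the log2 fold change over the square root of F. The difference between classes was fitted in 1 model with the library as a block. On simulated counts, 2-fold changes were recovered in 82 to 94% of genes and 4-fold changes in 100%. False calls were 13, 2 and 6 in all kept, smooth muscle-like and fibroblast-like cells. The simulation gave every gene the same fixed dispersion and changed only genes above a minimum level. It therefore does not give the power of the tests on the real libraries. Libraries of a group differed beyond sampling noise, with a chi-square per degree of freedom of 165 in AD and 80.1 in AD_ABR. Tags of overlapping genes on 1 strand are not separated.

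Named were the members past the threshold in all kept, smooth muscle-like or fibroblast-like cells, a fixed set of main chains whatever their result (Col1a1, Col1a2, Col3a1, Col5a1, Col5a2, Col4a1, Col4a2, Col8a1, Col6a1 to Col6a3, Col12a1, Col14a1, Col15a1, Col18a1, Col2a1, Col9a1, Col10a1, Col11a1), up to 6 pathway genes per comparison, and Lox, Loxl1, Serpinh1, P4ha1 and Plod2. Other members, and members called in the smaller classes, were named after their values were seen. The members and lists were chosen with earlier results of these data known. Alternatives were other size factors, no filter on low counts, DESeq2, a replicate block, leaving out each library, other cell filters and other clusterings.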

Additional observations from a re-analysis of the deposited data

Results flagged for a closer look

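A difference of the paquinimod effect between fibroblast-like and smooth muscle-like cells, by edgeR's test of the difference itself, singled out 4 collagen genes. The fibroblast-like effect was higher by 0.783 on the log2 scale for Col12a1, by 0.407 for Col1a1, by 0.385 for Col1a2 and by 4.788 for Col6a5. None of the 4 rose in fibroblast-like cells by the test within that class. Col12a1 fell in smooth muscle-like cells, and within fibroblast-like cells it fell in cluster 4 and not in the class as a whole. The value for Col6a5 rests on 9 UMIs in smooth muscle-like cells. DESeq2 called none of the 4.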

How the results depend on the processing

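Of 601 alternatives run on the 46 results of collagen and pathway genes past the threshold, 467 kept the call, 134 kept the direction without passing and 0 turned it. The count of collagen genes past the threshold depended on the libraries: leaving out 1 library gave 0 to 22 against 6 in all kept cells (12 without AD replicate 1 and 22 without AD replicate 2), 4 to 9 against 5 in smooth muscle-like cells, 1 to 11 against 2 in fibroblast-like cells, 0 to 10 against 2 in blood endothelial-like cells and 0 to 11 against 1 in cluster 12. It gave 0 to 8 against 3 in cluster 15, 0 to 1 against 0 in cluster 3 and in Schwann-like cells, 1 to 9 against 2 in clusters 7 and 11 and 0 to 6 against 4 for the difference between classes. A lone library left in a group was taken to vary like the other group. Calls over all genes moved between these fits as well. In all kept cells they were all lost without AD_ABR replicate 1 or 2 and were most numerous without AD replicate 2. In fibroblast-like cells they were also most numerous without AD replicate 2. The counts of collagen genes were not tested against the calls over all genes and cannot be read as particular to collagen genes.

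Without the filter on low counts the counts were 12 (all kept cells), 8 (smooth muscle-like), 6 (fibroblast-like), 6 (blood endothelial-like), 5 (cluster 12), 4 (cluster 3), 1 (Schwann-like), 4 (clusters 7 and 11) and 8 (difference between classes). From smooth muscle-like cells on, genes of all kinds called higher and lower were 1415 and 1155 of 26650, 948 and 747 of 24941 and 301 and 635 of 20607. They were 80 and 162 of 21964 in cluster 12, 216 and 395 of 25104 in cluster 3 and 25 and 52 of 17472 in Schwann-like cells. Clusters 7 and 11 had 344 and 299 of 24086, and the difference had 527 and 409 of 28619. DESeq2 gave 20 in all kept cells, 1 in blood endothelial-like cells, 3 in cluster 12, 1 in cluster 15, 1 in cluster 3, 1 in clusters 7 and 11 and 0 for the difference. Of all genes it called 84 higher and 243 lower of 10766 in blood endothelial-like cells, 21 and 30 of 10534 in cluster 12 and 27 and 57 of 4671 in cluster 15. The calls were 48 and 101 of 13601 in cluster 3, 58 and 52 of 12896 in clusters 7 and 11 and 124 and 74 of 15437 for the difference. In all kept cells DESeq2 called 1634 genes higher and 2049 lower of all 20196. Without the filter edgeR called 1221 and 1356 of all 33943, against 208 and 496 of 20196 in the main test. With doublets kept there were 10 in all kept cells and 1 each in blood endothelial-like cells and clusters 7 and 11. Genes of all kinds called higher and lower there were 303 and 623 of 20550, 40 and 146 of 11888 and 61 and 82 of 13383. At a mitochondrial share below 10% cluster 12 had 0, against 3 genes higher and 1 lower of all 10519. With collagen genes kept for clustering, fibroblast-like cells and clusters 7 and 11 had 1 each, against 67 higher and 127 lower of all 13850 genes and 51 and 58 of 13023. At Leiden resolution 0.5 blood endothelial-like cells had 4 and clusters 7 and 11 had 7, against 103 and 341 of 11159 and 192 and 267 of 14280. Clusters 0 and 1 alone gave 3 each, against 692 higher and 886 lower of all 13393 genes and 560 and 740 of 12959. Clusters 2 and 4 alone gave 1 each, against 43 and 75 of 12377 and 43 and 93 of 12281. Without chondrocyte-like cells and clusters 12 and 14 all kept cells gave 1, against 46 genes higher and 345 lower of all 19829. The causes of these shifts were not tested beyond the samples and genes each leaves out. Fibroblast-like cells held 22.8 and 48.3% of collagen UMIs in AD and AD_ABR at resolution 0.5.

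Same-numbered libraries share only a number in the labels. Their deviations correlated at −0.106 in all kept cells, 0.359 in smooth muscle-like and 0.118 in fibroblast-like cells. The replicate block gave 2 in all kept cells, 7 in blood endothelial-like cells, 5 in cluster 12, 1 in Schwann-like cells, 8 in clusters 7 and 11, 5 in smooth muscle-like and 3 in fibroblast-like cells. From blood endothelial-like cells on, genes of all kinds called higher and lower were 567 and 908 of 10766, 58 and 86 of 10534 and 18 and 33 of 5488. They were 445 and 473 of 12896 in clusters 7 and 11, 1698 and 1658 of 14712 in smooth muscle-like and 607 and 734 of 13694 in fibroblast-like cells. In all kept cells the block ended the calls of Col12a1 (adjusted p = 0.0677), Col27a1 (0.0597), Col4a5 (0.0718) and Col4a6 (0.072). In smooth muscle-like cells it ended that of Col8a1 (−1.33, adjusted p = 0.0905), although the count there was also 5 without it. The crossed pairing, added after the data were seen, gave 14 in all kept cells. Over all 20196 genes the block called 13 higher and 90 lower there, and the crossed pairing 1086 and 1627.

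Signs turned for values near 0 that had not passed. In all kept cells without chondrocyte-like cells and clusters 12 and 14 Col1a1 was 0.349, Col5a1 0.161 and Col5a2 0.059. In smooth muscle-like cells Col5a2 was 0.009 with DESeq2 and with its size factors, 0.046 without the filter and 0.019 in cluster 0, Col1a2 was 0.034 without the filter and Col15a1 was −0.026 in cluster 1. In fibroblast-like cells Col6a3 was 0.009 with DESeq2 and with its size factors. Without the filter Col15a1 was 0.036, Col4a1 0.038 and Col6a3 0.055 there. With doublets kept Col4a1 was 0.02, Col6a3 0.09 and Col9a1 0.12. With collagen genes kept for clustering Col15a1 was 0.066, Col5a2 −0.014, Col6a3 0.035 and Col9a1 0.337. At resolution 0.5 Col12a1 was −0.122, Col15a1 0.038, Col4a1 0.11, Col6a3 0.103 and Col9a1 0.52. In cluster 2 alone Col14a1 was −0.267, Col15a1 0.019, Col1a1 −0.082, Col4a2 −0.185, Col5a2 −0.161, Col6a2 −0.054 and Loxl1 −0.004. In cluster 4 alone Col12a1 was −0.915, Col14a1 −0.144, Col15a1 0.168, Col1a1 −0.142, Col1a2 −0.016, Col3a1 −0.094, Col4a1 0.067, Col5a2 −0.164 and Col6a2 −0.113.

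Leaving out 1 library gave, in all kept cells, ranges of −0.269 to 0.239 for Col1a1, −0.134 to 0.583 for Col1a2, −0.155 to 0.477 for Col3a1, −0.266 to 0.087 for Col5a1 and −0.249 to 0.425 for Lox. In smooth muscle-like cells they were −0.041 to 0.107 for Col15a1, −0.078 to 0.057 for Col1a2, −0.072 to 0.078 for Col5a2 and −0.003 to 0.39 for Col6a1. In fibroblast-like cells they were −0.003 to 0.11 for Col14a1, −0.137 to 0.099 for Col15a1, −0.071 to 0.388 for Col3a1, −0.095 to 0.104 for Col4a1, −0.006 to 0.124 for Col4a2, −0.248 to 0.188 for Col5a1, −0.08 to 0.124 for Col5a2, −0.059 to 0.228 for Col6a2, −0.173 to 0.196 for Col6a3, −2.006 to 0.207 for Col9a1 and −0.008 to 0.379 for Loxl1. In cluster 15 free RNA exceeded 20% of the level in at least 1 library for 16 of the 19 genes tested. Numbered clusters have no value under other clusterings, and cluster 15 has none at the stricter mitochondrial limit. In smooth muscle-like cells 12 of the 30 genes tested, among them Col8a1, Col10a1, Col12a1 and Col27a1, had free RNA above 20% of their level in at least 1 library, which limits how far their low levels can be read. In AD_ABR free RNA was measured in only 86 and 158 cells, so the shares there are rough.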
